A study of Mus musculus with 20 samples.

Results

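Genes of the major histocompatibility complex (MHC) and of the interferon response were followed in kidney cortex of mice with 3 kinds of acute kidney injury. They were taken by symbol alone. The prefixes of the MHC (H2-), interferon-induced (Ifi, Ifit, Isg), interferon regulatory factor (Irf), interferon receptor (Ifnar, Ifngr), Oas, Gbp and Stat families were used, together with Cd74, Rsad2, Tap1, Tap2 and B2m. This gave 46 of the 6025 genes in the deposited table. By role, 11 belong to MHC class I antigen presentation, 4 to MHC class II, and 29 to interferon signalling and its induced genes. The remaining 2, H2-Ke6 and Irf2bpl, match by symbol only. The class I genes B2m, H2-K1 and Tap2 were not analysed here.

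Each library was 1 wild-type (WT) C57BL/6 mouse aged 8 weeks. The 8 control mice are labelled mock, while the series' design speaks of mock and vehicle animals. The injured groups held 4 mice each: ischemia-reperfusion injury (IRI, tissue taken at 24 h), rhabdomyolysis (24 h) and cisplatin (72 h). Cisplatin kidneys were thus sampled later than the rest, and time after injury and kind of injury cannot be told apart. How long the ischemia lasted, how rhabdomyolysis was induced and the dose of cisplatin are not given in the sources used here. Polyadenylated RNA of cortex was sequenced, and levels are given as CPM, reads of a gene scaled to a common library size.

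MHC class I molecules are carried by nearly all cells and present peptides from inside the cell, which the Tap transporter moves into the endoplasmic reticulum. MHC class II molecules are carried mainly by professional antigen-presenting cells such as dendritic cells, macrophages and B cells, present peptides from taken-up material, and depend on the invariant chain Cd74 and the transactivator Ciita. Interferons act through their receptors and STAT and IRF proteins on response elements in promoters. The interferon-stimulated response element (ISRE) is read by IRF-containing complexes and the gamma-activated site (GAS) by STAT dimers. In kidney, class II molecules mark resident mononuclear phagocytes, and tubule cells can express them after exposure to interferon gamma.

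Promoter sequence is shown for 4 of the genes. The 4 stretches printed here each run 5′ to 3′ on the gene's strand from 140 to 31 bases before the RefSeq start (GRCm38.p6, 110 bases). Isg15 and Ifit1 are shown as interferon-stimulated genes whose promoters hold more than 1 ISRE match, Irf1 as a factor with a GAS, and H2-Aa as a class II gene. Isg15 lies at chr4:156200849-156200958 on the minus strand, Ifit1 at chr19:34640749-34640858 on the plus strand, Irf1 at chr11:53769874-53769983 on the plus strand and H2-Aa at chr17:34287854-34287963 on the minus strand. Capitals mark matches on either strand to the ISRE core (GAAA, any 2 bases, GAAA), to the GAS TTCNNNGAA, and to the Y box CCAAT, a general promoter element that is also part of class II promoters.
Isg15: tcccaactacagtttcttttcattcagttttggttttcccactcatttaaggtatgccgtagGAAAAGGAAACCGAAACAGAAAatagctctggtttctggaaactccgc
Ifit1: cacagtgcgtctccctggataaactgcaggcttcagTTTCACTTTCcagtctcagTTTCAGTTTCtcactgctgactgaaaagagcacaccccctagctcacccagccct
Irf1: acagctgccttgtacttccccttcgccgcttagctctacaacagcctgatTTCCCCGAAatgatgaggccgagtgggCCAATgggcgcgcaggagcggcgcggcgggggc
H2-Aa: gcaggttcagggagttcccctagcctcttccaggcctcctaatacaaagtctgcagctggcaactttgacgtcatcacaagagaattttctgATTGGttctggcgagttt

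In the Isg15 stretch 3 ISRE matches overlap in 1 run, and Ifit1 holds 2 separate matches on the other strand. Irf1 holds 1 GAS match and 1 Y box, and H2-Aa holds 1 Y box and neither interferon motif. RefSeq promoter windows were matched for 34 of the 46 genes, and the 250 bases before the start were searched. A gene was counted when any of its windows matched, while the shares of all windows count each window singly. The ISRE core was found in 8 of 23 interferon genes (Gbp7, Ifi205, Ifit1, Ifitm2, Isg15, Oas1a, Oas1g and Oas3), in 1 of 7 class I genes (H2-T23) and in 0 of 2 class II genes, beside 2.98% of all 32851 windows. The GAS was found in 5 of 23 interferon genes (Gbp7, Ifit2, Irf1, Isg20 and Oas1a) and in 0 of 7 class I genes, beside 7.02% of all windows. The Y box was found in 6 of 7 class I genes, 2 of 2 class II genes and 12 of 23 interferon genes, beside 33.8% of all windows. A match is a description of the letters in these windows.

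The libraries held 3.48 to 5.40 M reads over the genes in the table. The labelled cortex was checked on 8 proximal tubule markers, which summed to between 11621 and 17904 CPM in the controls and to between 2233 and 5603 CPM in the injured libraries. Of these markers 6 fell after IRI and 8 after rhabdomyolysis and after cisplatin, beside 40.1%, 46.5% and 44.0% of all genes tested. All 6025 genes of the table lie over 1.5-fold above or below the mean of the controls after 1 injury or more, so unchanged genes were not analysed here and a high share of calls is the rule. Among the 46 genes, 25 passed that limit after IRI, 36 after rhabdomyolysis and 41 after cisplatin. The genes nearest the limit were Ifitm2, whose largest mean change was 1.70-fold, and H2-Q7 with 1.87-fold. Each injury was tested against the 4 controls that share its range of library identifiers: controls 1 to 4 for IRI, and controls 5 to 8 for both rhabdomyolysis and cisplatin. The test was limma on log2(CPM + 1) over the 5672 genes that averaged 1 CPM or more, with p-values adjusted by Benjamini-Hochberg over all of them and called at 0.05. On this scale the change of low genes is understated. Of the 46 genes 41 were tested. H2-Bl, Ifi205, Irf4, Oas1b and Oas1g fell under 1 CPM. Another 5 reached a mean of 1 CPM only through an injury group in which they were high: H2-Q1, H2-Q2 and H2-Q10 through rhabdomyolysis, and H2-L, H2-Q10 and Ifi27l2b through cisplatin. Calls of these 5 in that injury follow in part from the filter, so the counts are also given without them, a choice made after seeing the data.

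Class II genes moved apart from the other classes in the injured kidneys. After rhabdomyolysis the median changes of class I and interferon genes were alike, at 0.62 on the log2 scale for each with all genes included. Class II genes fell in all 3 injuries, class I genes divided by gene and by injury, and interferon genes rose in the largest number after cisplatin (22 of 25 tested, beside 15 after rhabdomyolysis and 11 after IRI). After IRI, 12 of the 41 tested genes rose and 10 fell, so 53.7% were called, beside 80.7% of all genes tested. Rhabdomyolysis gave 21 rises and 10 falls, or 75.6% beside a background of 95.3%. Cisplatin gave 28 rises and 7 falls, or 85.4% beside a background of 91.8%. Without the 5 genes that passed the filter through 1 injury, 36 were tested, and 11 rose and 10 fell after IRI, 17 and 10 after rhabdomyolysis, and 24 and 7 after cisplatin. The share of calls was below the background in each injury. The division by direction in all genes tested was 40.6% higher and 40.1% lower after IRI, 48.8% and 46.5% after rhabdomyolysis, and 47.8% and 44.0% after cisplatin. No gene of the 41 was called in opposite directions by different injuries.

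Class medians were also taken in single libraries. A library's class median is the median over a class of log2(CPM + 1) minus the mean of the 8 controls. For class II it lay between -1.81 and -1.56 in the IRI libraries, between -1.36 and -0.43 in rhabdomyolysis and between -1.05 and -0.71 in cisplatin, and between -0.29 and 0.22 in the controls. For the interferon genes it was 1.07 to 1.47 in cisplatin, 0.16 to 1.01 in rhabdomyolysis, 0.19 to 0.37 in IRI and -0.10 to 0.06 in the controls. For class I it was 0.53 to 1.18 in rhabdomyolysis, 0.26 to 0.63 in cisplatin, -0.28 to -0.04 in IRI and -0.23 to 0.17 in the controls, over all 11 genes. Over the 6 class I genes that were tested and did not pass the filter through 1 injury, it was -0.09 to 0.27 in rhabdomyolysis, -0.11 to 0.76 in cisplatin, -0.75 to -0.19 in IRI and -0.13 to 0.23 in the controls. The position of class I in rhabdomyolysis thus rests on the other 5 genes, and without them rhabdomyolysis and cisplatin overlap each other and the controls. The cisplatin and rhabdomyolysis libraries did not overlap for interferon genes, and the rhabdomyolysis range reached down into that of IRI. In bulk tissue, fewer cells of a type and less RNA per cell cannot be told apart.

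**Figure D1:**
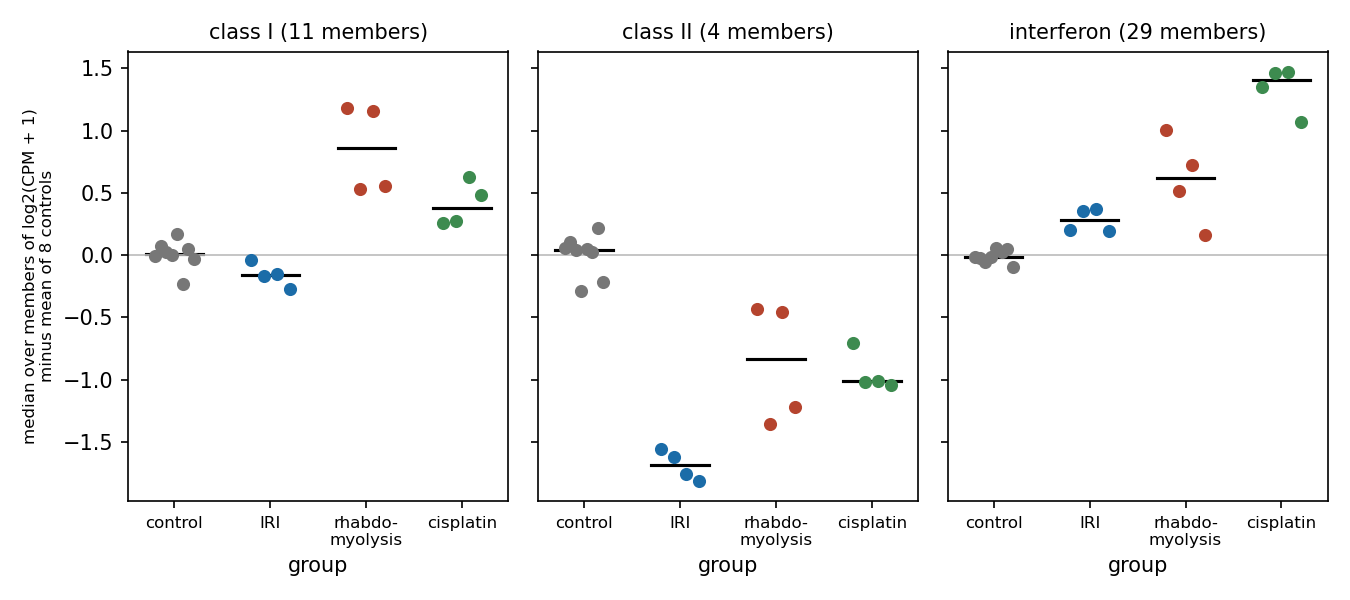
Each point is 1 library, placed by the median over the class members of log2(CPM + 1) minus the mean of the 8 controls (y axis), by group (x axis), and black bars are group medians. Class II libraries lie lowest in IRI (-1.81 to -1.56), and interferon libraries highest in cisplatin (1.07 to 1.47). The class I panel includes the 4 genes that passed the filter only through 1 injury.

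**Figure D2:**
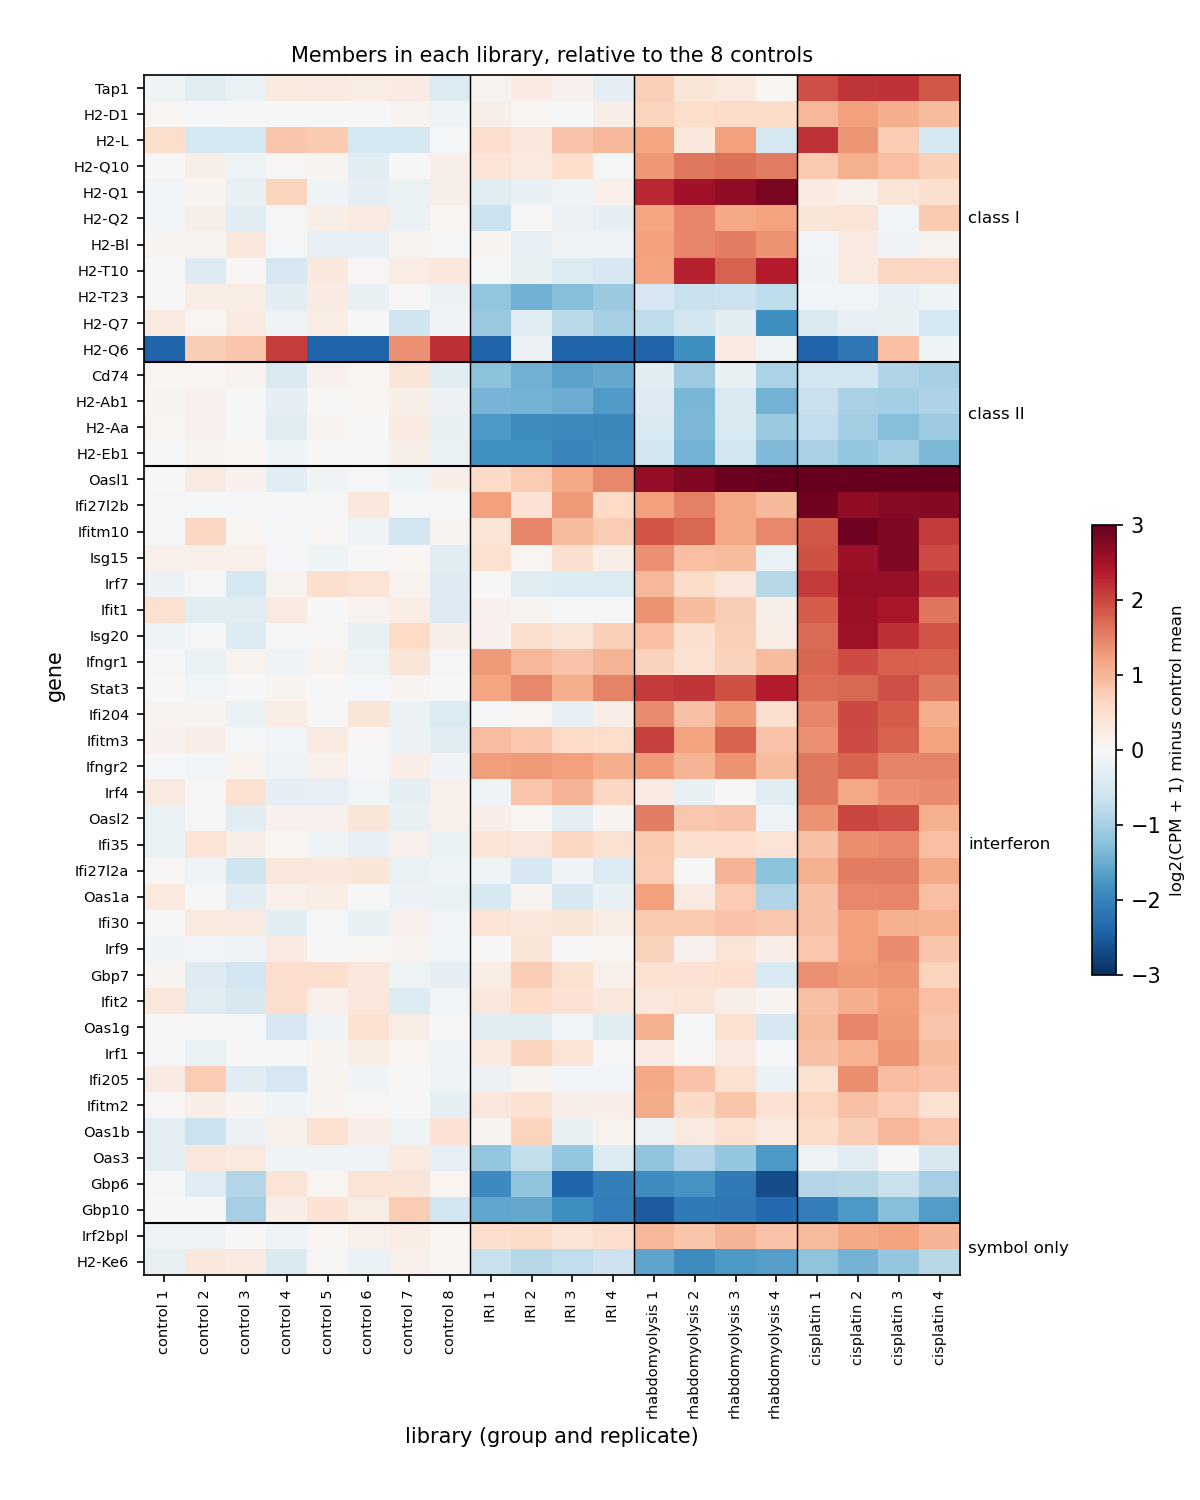
Each row is 1 of the 46 genes, grouped by class, and each column 1 of the 20 libraries, coloured by log2(CPM + 1) minus the mean of the 8 controls, with the colour scale ending at -3 and 3. The 4 class II rows are blue in all 12 injured libraries, most of the interferon rows are reddest in cisplatin, and Gbp6 and Gbp10 are blue among them.

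MHC class II was the class with the most uniform change. All 4 genes in the table, Cd74, H2-Aa, H2-Ab1 and H2-Eb1, fell in each of the 3 injuries. The median change was -1.66 on the log2 scale after IRI, -0.90 after rhabdomyolysis and -0.99 after cisplatin, while the median of all genes was 0.10, 0.36 and 0.33. All 4 libraries lay below all 8 controls for 4 of 4 genes after IRI, where this held for 32.5% of all genes in the table. It held for 3 of 4 genes after rhabdomyolysis (background 41.1%) and for 4 of 4 after cisplatin (36.5%).

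Cd74 encodes the invariant chain, which guides class II molecules to the endosome. Its levels in the 8 controls ran from 107 to 189 CPM with a median of 153. They were 62.2, 53.7, 47.4 and 49.6 CPM in IRI mice 1 to 4, 118, 68.3, 124 and 75.5 in rhabdomyolysis, and 97.4, 98.7, 78.1 and 72.7 in cisplatin. IRI and cisplatin libraries all lay below the controls, while rhabdomyolysis mice 1 and 3 reached into the control range. Cd74 fell by 1.39 ± 0.18 (SE) on the log2 scale after IRI (limma adjusted p = 6.99e-07), by 0.70 ± 0.18 after rhabdomyolysis (limma adjusted p = 0.00102) and by 0.82 ± 0.18 after cisplatin (limma adjusted p = 0.000272). With quantile normalization the rhabdomyolysis value was -0.35 and was not called (limma adjusted p = 0.0864).

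H2-Aa and H2-Ab1 encode the alpha and beta chains of the class II molecule I-A, and lie at chr17:34282744-34287823 (minus strand) and chr17:34257689-34269419 (plus strand; gene spans in GRCm38, GENCODE M21). H2-Aa ranged from 52.6 to 78.9 CPM in controls (median 67.5). It was 19.3, 17.0, 16.8 and 16.4 CPM in IRI, 47.2, 25.3, 47.4 and 29.7 in rhabdomyolysis, and 39.0, 31.2, 26.4 and 30.2 in cisplatin. No injured library reached the control range. H2-Aa fell by 1.84 ± 0.17 after IRI (limma adjusted p = 5.13e-09), by 0.87 ± 0.17 after rhabdomyolysis and by 1.07 ± 0.17 after cisplatin. H2-Ab1 ranged from 52.9 to 72.4 CPM in controls (median 66.1), and was 23.7, 23.3, 22.04 and 18.9 CPM in IRI, 48.6, 24.0, 46.6 and 23.2 in rhabdomyolysis, and 39.7, 31.9, 31.2 and 33.5 in cisplatin. The rhabdomyolysis mice again formed a higher pair (1 and 3) and a lower pair (2 and 4), and the lower pair lay within the IRI range or just above it. H2-Ab1 fell by 1.48 ± 0.19 after IRI, 0.93 ± 0.19 after rhabdomyolysis and 0.92 ± 0.19 after cisplatin (limma adjusted p between 3.74e-07 and 0.000102).

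H2-Eb1 encodes the beta chain of I-E and lies at chr17:34305867-34316674 (plus strand). It ranged from 51.2 to 66.8 CPM in controls (median 60.1), and was 16.1, 16.1, 14.2 and 14.99 CPM in IRI, 40.3, 21.6, 40.3 and 23.2 in rhabdomyolysis, and 29.6, 26.0, 28.9 and 22.8 in cisplatin. The IRI mice lay close together and below every other library. H2-Eb1 fell by 1.89 ± 0.16 after IRI (limma adjusted p = 1.34e-09), by 0.95 ± 0.16 after rhabdomyolysis and by 1.11 ± 0.16 after cisplatin.

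The class II fall was larger after IRI. The difference between the IRI effect and the rhabdomyolysis effect, each against its own controls, was -0.97 ± 0.24 for H2-Aa (limma adjusted p = 0.00244), -0.95 ± 0.23 for H2-Eb1 (limma adjusted p = 0.00179) and -0.69 ± 0.26 for Cd74 (limma adjusted p = 0.0306), and -0.55 ± 0.26 for H2-Ab1, which was not called (limma adjusted p = 0.0837) but was with edgeR, quantile normalization, all 8 controls, or without rhabdomyolysis mouse 2 or 4 (adjusted p of limma or edgeR between 0.00784 and 0.0467). The Cd74 call was lost when any 1 of controls 1, 2, 3 and 8, rhabdomyolysis mice 1 and 3 and IRI mice 3 and 4 was left out, with limma adjusted p up to 0.0783. Against the cisplatin effect the difference was called for H2-Aa (-0.77 ± 0.24) and H2-Eb1 (-0.78 ± 0.23), and not for Cd74 (-0.57 ± 0.26) or H2-Ab1 (-0.57 ± 0.26). With all 8 controls in use, 4 of 4 were called against cisplatin. Between rhabdomyolysis and cisplatin directly, limma called 0 of the 4 genes, 0 had an unadjusted p under 0.05, and edgeR called 0. The differences there ran from -0.01 to 0.19 with SEs of 0.16 to 0.19.

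Among other genes of the presentation pathway, Ciita fell with the class II genes while the rest of those in the table rose. Of 15 listed antigen processing genes outside the symbol rule, 4 were in the table. In each injury 3 rose and 1 fell, while 40.6% to 48.8% of all genes tested rose and 40.1% to 46.5% fell. The fall was that of Ciita, the transactivator of class II genes, at 3.92 ± 1.02 CPM in controls (SD, n = 8), then 2.07 ± 0.63 with IRI, 1.79 ± 0.51 with rhabdomyolysis and 1.88 ± 0.84 with cisplatin (SD, 4 mice each). Ctss, the cathepsin that trims the invariant chain, rose by 0.54 ± 0.22, 1.81 ± 0.22 and 1.57 ± 0.22 in the same order. Erap1, a peptide-trimming aminopeptidase, rose by 0.69 ± 0.12, 0.68 ± 0.12 and 0.76 ± 0.12. Psmb10, an immunoproteasome subunit, rose by 0.86 ± 0.14, 0.38 ± 0.14 and 0.93 ± 0.14.

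Most macrophage and dendritic cell markers in the table rose or were not called, while the B cell marker was low and not tested. Of 12 macrophage and monocyte markers 9 were in the table and tested, and 4 rose after IRI, 8 after rhabdomyolysis and 7 after cisplatin. The shares of all genes tested that rose were 40.6%, 48.8% and 47.8%, so the IRI count is near the background. Csf1r, the receptor for macrophage colony-stimulating factor, was the 1 marker that fell, from 51.7 ± 7.01 CPM (SD, n = 8) in controls to 16.1 ± 1.55 with IRI, 28.7 ± 9.47 with rhabdomyolysis and 29.5 ± 3.04 with cisplatin (SD, 4 mice each). The 9 markers summed to between 83.3 and 117 CPM in controls, 99.1 and 138 in IRI, 107 and 251 in rhabdomyolysis, and 189 and 272 in cisplatin, and none of them was at 0 in all libraries of a group. In rhabdomyolysis mice 1 to 4 the sum was 250.1, 154, 251 and 107 CPM, so mice 2 and 4 were low here and for class II. Of 7 dendritic cell markers 2 were in the table, Itgax and Zbtb46. Itgax rose in all 3 injuries and Zbtb46 after rhabdomyolysis and cisplatin, and they summed to 3.10 to 7.41 CPM in controls, 5.49 to 9.86 in IRI, 12.3 to 19.5 in rhabdomyolysis and 11.9 to 16.0 in cisplatin. Of 5 B cell markers 1, Cd79a, was in the table, below the limit for testing, at 0.43 to 1.60 CPM in controls and 0 to 0.92 in the injured libraries. The part of these cells in the class II result was not tested.

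Markers of further cell types moved beside the interferon genes. All 5 neutrophil markers in the table (of 6 listed) rose in each injury, and their sum went from 2.82 to 5.11 CPM in controls to 13.6 to 28.2 in IRI, 25.3 to 49.1 in rhabdomyolysis and 21.9 to 39.8 in cisplatin. For comparison, 40.6% of all genes tested rose after IRI, 48.8% after rhabdomyolysis and 47.8% after cisplatin. Of 4 endothelial markers in the table (of 7 listed), 3 rose after IRI and 4 after each of the other injuries, with sums of 174 to 360.2 CPM in controls, 341 to 381 in IRI, 601 to 857 in rhabdomyolysis and 381 to 537 in cisplatin. Of 7 T cell markers 2 were in the table, and Lck, a T cell kinase, rose after IRI and rhabdomyolysis, while Cd8a fell after rhabdomyolysis and cisplatin. Their sum was 1.83 to 3.596 CPM in controls and 2.06 to 4.63 in the injured libraries. No marker on these lists was at 0 in all libraries of a group. Their part in the class I and interferon results was not tested.

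**Figure D3:**
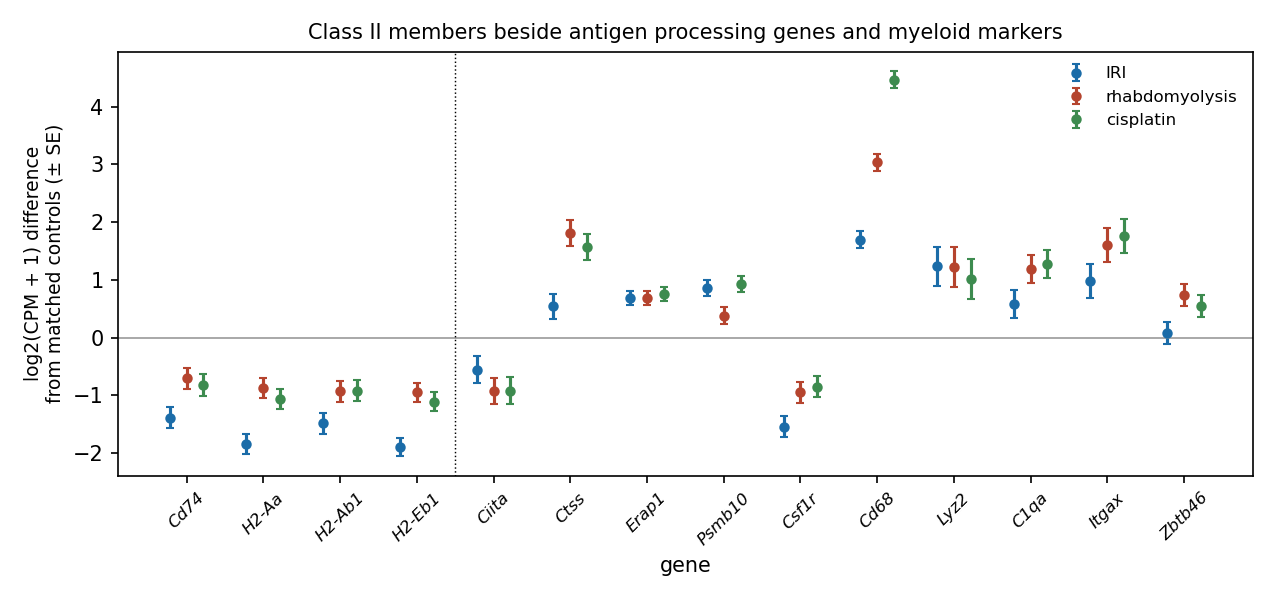
Points give the difference in log2(CPM + 1) between each injury and its 4 matched controls (y axis), with SE from limma, for the 4 class II genes (left of the dotted line), 4 antigen processing genes and 6 myeloid markers (x axis). Class II genes, Ciita and Csf1r lie below 0 in all 3 injuries, from -1.89 to -0.56, while Ctss, Erap1, Psmb10 and the other markers lie above it.

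MHC class I did not move as a unit. The class held 10 heavy chain genes and Tap1, and 10 of the 11 were tested. After IRI 0 rose and 2 fell, after rhabdomyolysis 5 rose and 2 fell, and after cisplatin 5 rose and 0 fell. The 5 of 10 that rose after rhabdomyolysis and after cisplatin are a share near that of all genes (48.8% and 47.8% higher). For the counts of 0, no gene had an unadjusted p under 0.05 in that direction, and edgeR called 0. Without the 4 class I genes that passed the filter through 1 injury, 6 were tested, of which 2 rose and 2 fell after rhabdomyolysis, 2 rose after cisplatin, and again 0 rose and 2 fell after IRI. The class I median change was -0.19 after IRI, 0.62 after rhabdomyolysis and 0.29 after cisplatin, these 4 genes included. The cisplatin count was 3 without control 6, without control 7 and with quantile normalization, and 4 without any other single library. With quantile normalization, 1 class I gene rose and 5 fell after IRI. Quantile normalization lowered the median change of all genes from 0.30 to 0.03 after cisplatin and from 0.31 to 0.14 after rhabdomyolysis.

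H2-D1, at chr17:35262730-35267499 (plus strand), is a classical class I heavy chain. It ran from 191 to 224 CPM in controls (median 214), and was 238, 222, 211 and 244 CPM in IRI, 337, 307, 315 and 312 in rhabdomyolysis, and 421, 495, 449 and 411 in cisplatin. IRI libraries overlapped the controls, rhabdomyolysis libraries lay above them, and cisplatin libraries lay above both. H2-D1 rose by 0.59 ± 0.09 after rhabdomyolysis (limma adjusted p = 1.77e-06) and 1.07 ± 0.09 after cisplatin (limma adjusted p = 3.35e-10), and after IRI its difference was 0.10 ± 0.09 (limma adjusted p = 0.289). With 75th percentile scaling and with quantile normalization the IRI difference was called, at 0.23 and 0.46. Rhabdomyolysis and cisplatin differed by -0.48 ± 0.09 (limma adjusted p = 0.000106).

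Tap1, at chr17:34187553-34197225 (plus strand), encodes a subunit of the peptide transporter. It ran from 7.73 to 13.2 CPM in controls (median 11.1), and was 11.4, 12.7, 11.6 and 8.58 CPM in IRI, 17.96, 14.0, 13.2 and 11.01 in rhabdomyolysis, and 43.5, 49.96, 50.8 and 41.2 in cisplatin. The cisplatin libraries stood above all others, and the remaining libraries overlapped the control range or lay near it. Tap1 rose by 1.94 ± 0.18 there (limma adjusted p = 1.33e-09), with 0.27 ± 0.18 after rhabdomyolysis and 0.13 ± 0.18 after IRI, neither of them called. The rhabdomyolysis difference was called with all 8 controls (0.35, limma adjusted p = 0.0299) and with 75th percentile scaling (0.44, limma adjusted p = 0.0281). The difference between rhabdomyolysis and cisplatin was -1.67 ± 0.18 (limma adjusted p = 5.67e-08).

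H2-T23, at chr17:36029773-36032855 (minus strand), encodes Qa-1, a non-classical molecule that is read by natural killer cell receptors. Its control range was 81.7 to 121 CPM (median 104), with 44.5, 37.2, 41.7 and 47.1 CPM in IRI, 72.3, 64.1, 65.8 and 59.7 in rhabdomyolysis, and 96.5, 96.5, 86.6 and 93.7 in cisplatin. IRI and rhabdomyolysis libraries lay below all controls and cisplatin libraries among them. H2-T23 fell by 1.28 ± 0.13 after IRI (limma adjusted p = 9.46e-09) and by 0.62 ± 0.13 after rhabdomyolysis (limma adjusted p = 8.71e-05), while its cisplatin difference was -0.11 ± 0.13. H2-Q7, of the Qa-2 family, also fell after IRI (-0.93 ± 0.24) and rhabdomyolysis (-0.75 ± 0.24).

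Among low class I genes, H2-Q1, H2-Q2, H2-Q10 and H2-T10 were called higher after rhabdomyolysis, and the first 3 of them were tested only because of their level there. Over the other 16 libraries their means were 0.71, 0.84 and 0.60 CPM, against 8.69, 3.22 and 2.63 in rhabdomyolysis. H2-Q1, at chr17:35320405-35325099 (plus strand), ran from 0.32 to 1.58 CPM in controls (median 0.52), and was 0.26, 0.40, 0.46 and 0.80 CPM in IRI, 6.71, 8.27, 9.31 and 10.4 in rhabdomyolysis, and 0.93, 0.81, 1.12 and 1.26 in cisplatin. All 4 rhabdomyolysis libraries stood above every other library. H2-Q1 rose by 2.68 ± 0.19 after rhabdomyolysis (limma adjusted p = 1.66e-11) and exceeded cisplatin by 2.25 ± 0.19 (limma adjusted p = 2.47e-09). Its rise after cisplatin, 0.43 ± 0.19 (limma adjusted p = 0.0378), was not called with all 8 controls or without any 1 of controls 5, 6 and 7 and cisplatin mice 3 and 4 (limma adjusted p between 0.0598 and 0.0962). With quantile normalization that value was -0.057.

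H2-T10, at chr17:36115876-36121465 (minus strand), belongs to the non-classical molecules that some gamma delta T cells read. GENCODE lists it as a polymorphic pseudogene. It ran from 0.58 to 1.81 CPM in controls (median 1.29), and was 1.18, 0.93, 0.69 and 0.57 CPM in IRI, 4.16, 10.15, 6.65 and 10.6 in rhabdomyolysis, and 1.05, 1.72, 2.46 and 2.42 in cisplatin. Again the rhabdomyolysis libraries lay above all others. H2-T10 rose by 1.69 ± 0.23 (limma adjusted p = 3.93e-07) and exceeded cisplatin by 1.57 ± 0.23 (limma adjusted p = 5.80e-06). H2-Q2 rose by 1.18 ± 0.19 and H2-Q10, a secreted class I molecule, by 1.54 ± 0.16 after rhabdomyolysis. H2-Q10 also rose after cisplatin (0.88 ± 0.16), but its mean without the cisplatin libraries was 0.928 CPM, under the limit for testing. H2-Bl was too low to test, and its pooled reads in rhabdomyolysis were 19.3 times those of its matched controls after scaling to library size (95% interval 6.40 to 95.6, counting error only, 3 control reads).

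H2-L and H2-Q6 gave unstable values. H2-L ran from 0 to 1.58 CPM in controls and from 0 to 5.49 in cisplatin, where it was called higher (1.01 ± 0.47, limma adjusted p = 0.0453) although cisplatin mouse 4 was at 0. H2-L was tested only because of its level in cisplatin, as its mean over the other libraries was 0.955 CPM. H2-Q6 was listed at 0 in 3 of 8 controls, 3 of 4 IRI, 1 of 4 rhabdomyolysis and 1 of 4 cisplatin libraries, and reached 23.3 CPM in another control. Near-identical copies can trade reads in this region. Of the 150-base windows in their transcripts, H2-Q6 shares 5.99% with H2-Q7, and H2-Q7, H2-Q10, H2-Q1, H2-Q2 and H2-D1 share 5.90%, 3.43%, 2.69%, 2.56% and 1.35% with other genes. H2-L had no match in GENCODE M21, so its shared windows were not measured. Whether its reads came from other class I genes was not tested.

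**Figure D4:**
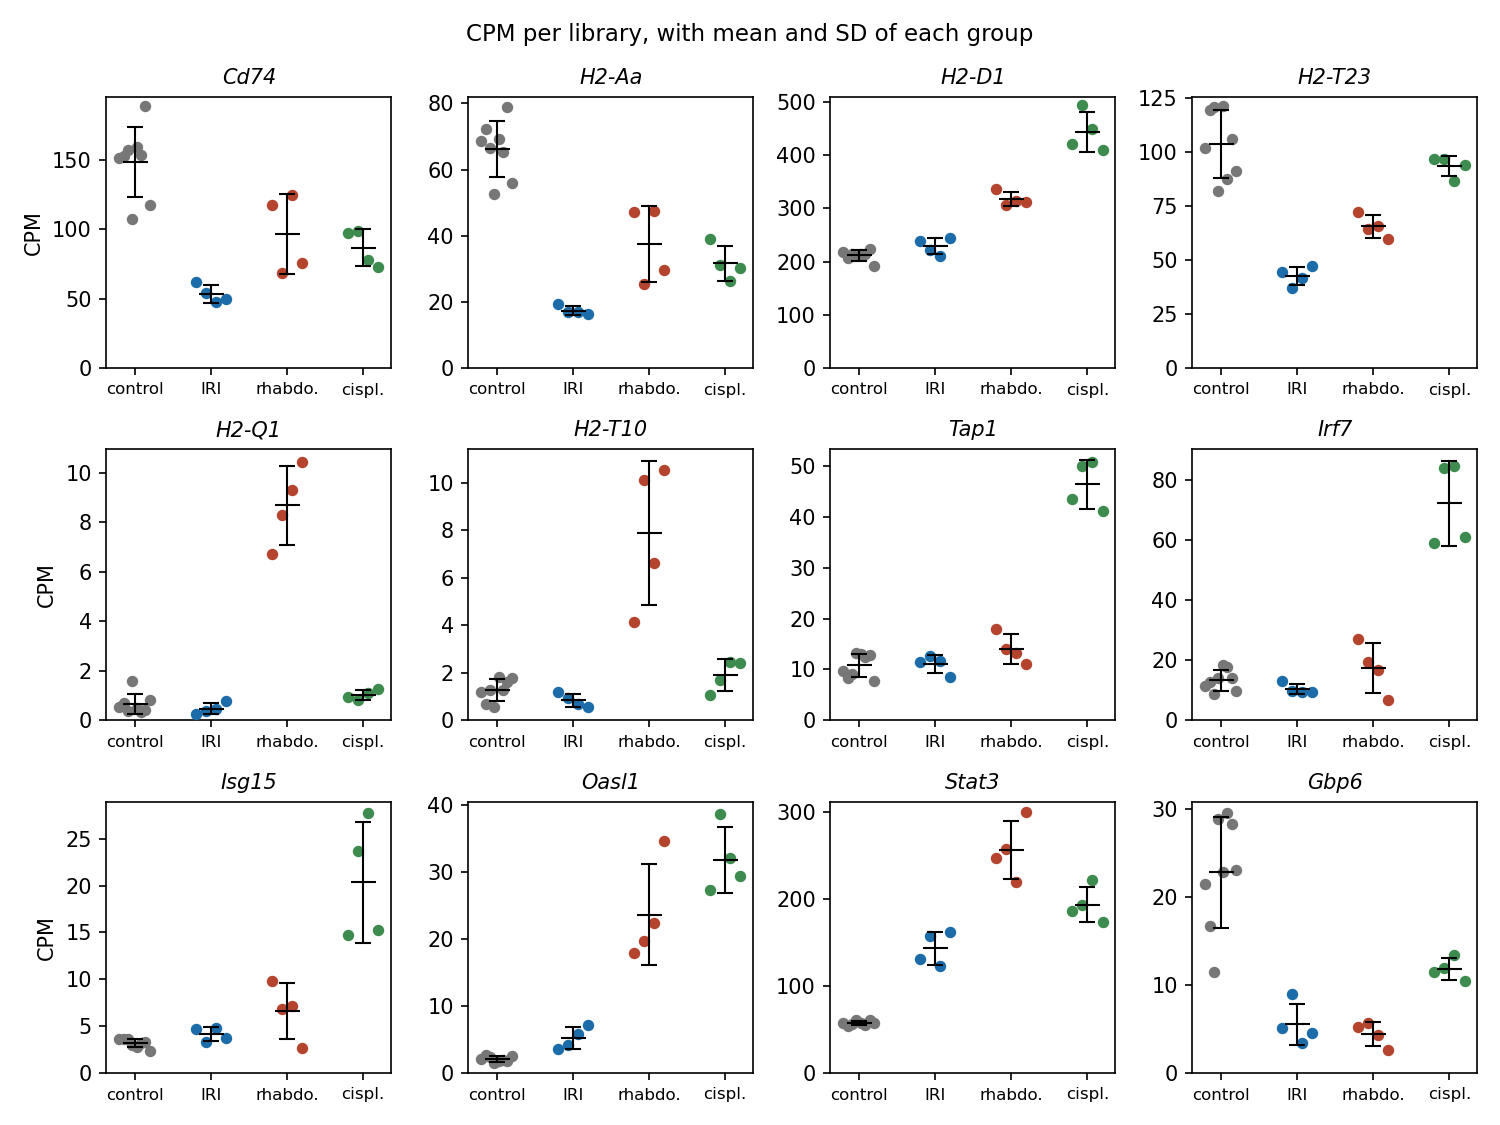
CPM in each library (points, y axis from 0) by group (x axis) for 12 genes, with the mean and SD of each group in black. H2-Q1 and H2-T10 stand out in rhabdomyolysis, Tap1, Irf7 and Isg15 in cisplatin, Cd74 and H2-Aa are lowest in IRI, and Stat3 lies above the controls in all 12 injured libraries.

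The interferon genes rose in the largest number after cisplatin. Of 25 tested, 11 rose and 3 fell after IRI, 15 rose and 3 fell after rhabdomyolysis, and 22 rose and 2 fell after cisplatin. Of all genes tested, 40.6%, 48.8% and 47.8% rose and 40.1%, 46.5% and 44.0% fell in the same order. The number that rose after IRI is thus near the background. The median change over the 29 genes was 0.28, 0.62 and 1.27, beside 0.10, 0.36 and 0.33 for all genes. Without IRI mouse 2, 7 rose after IRI. All 4 libraries lay above all 8 controls for 6 of 29 genes after IRI (background 30.0%), 10 after rhabdomyolysis (42.1%) and 25 after cisplatin (40.5%). Among the 25, 8 rose in all 3 injuries: Ifi27l2b, Ifi30, Ifitm3, Ifitm10, Ifngr1, Ifngr2, Oasl1 and Stat3. Another 7 rose after rhabdomyolysis and cisplatin (Ifi35, Ifi204, Ifit1, Ifitm2, Irf9, Isg15 and Oasl2), and 3 after IRI and cisplatin (Ifit2, Irf1 and Isg20). Gbp7, Ifi27l2a, Irf7 and Oas1a were called after cisplatin and not after the other injuries. Without Ifi27l2b, 10, 14 and 21 of 24 rose after IRI, rhabdomyolysis and cisplatin. Ifi35 was also called after IRI with all 8 controls (limma adjusted p = 0.00432), 75th percentile scaling, a 5 CPM minimum, no trend and without control 2, and Ifitm2 with all 8 controls (limma adjusted p = 0.0227) and with either other scaling. Gbp7 was also called after IRI without control 4 (limma adjusted p = 0.0146) and with 75th percentile scaling (limma adjusted p = 0.0401), and its IRI and cisplatin effects were not called different (-0.56 ± 0.35, limma adjusted p = 0.234). With all 8 controls that difference was called (-0.76, limma adjusted p = 0.0154). Irf7 was also called after rhabdomyolysis without mouse 4 (limma adjusted p = 0.038).

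The receptor chains rose in every injury. Ifngr1 and Ifngr2 encode the ligand-binding and signalling chains of the interferon gamma receptor. Ifngr1 ran from 29.3 to 43.3 CPM in controls (median 32.0), and was 83.1, 68.5, 61.2 and 69.1 CPM in IRI, 54.7, 46.5, 55.0 and 65.7 in rhabdomyolysis, and 115, 134, 119 and 117 in cisplatin. Every injured library exceeded every control, and the cisplatin libraries exceeded the rest. Ifngr1 rose by 1.10 ± 0.13 after IRI, 0.64 ± 0.13 after rhabdomyolysis and 1.76 ± 0.13 after cisplatin (limma adjusted p between 2.90e-11 and 5.75e-05). Ifngr2 ran from 30.1 to 38.5 CPM in controls (median 32.4), and was 80.8, 82.2, 79.6 and 72.1 CPM in IRI, 82.0, 68.6, 87.1 and 65.9 in rhabdomyolysis, and 101, 117, 95.1 and 95.4 in cisplatin. It rose by 1.25 ± 0.11, 1.11 ± 0.11 and 1.54 ± 0.11 (limma adjusted p between 3.72e-11 and 3.91e-09), again with cisplatin highest.

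Stat3, at chr11:100885098-100939540 (minus strand), carries signals of the interleukin 6 family more than of interferons. It ran from 54.3 to 61.0 CPM in controls (median 57.0), and was 131, 157, 123 and 162 CPM in IRI, 247, 257, 219 and 299 in rhabdomyolysis, and 186, 192, 221 and 173 in cisplatin. All injured libraries stood far above a narrow control range. Stat3 rose by 1.30 ± 0.11, 2.13 ± 0.11 and 1.73 ± 0.11 (limma adjusted p between 9.78e-14 and 9.42e-10). It was the 1 interferon-class gene higher in rhabdomyolysis than in cisplatin (0.40 ± 0.11, limma adjusted p = 0.00391).

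The interferon regulatory factors were led by cisplatin. Irf7, at chr7:141262706-141266481 (minus strand), amplifies the type I interferon response. It ran from 8.65 to 18.6 CPM in controls (median 13.3), and was 13.1, 9.86, 9.41 and 9.49 CPM in IRI, 27.0, 19.5, 16.7 and 6.81 in rhabdomyolysis, and 58.9, 84.2, 84.8 and 61.1 in cisplatin. The cisplatin libraries stood above all others, and rhabdomyolysis mice ranged from above the controls (mice 1 and 2) to below them (mouse 4). Irf7 rose by 2.21 ± 0.27 after cisplatin (limma adjusted p = 1.68e-07), with differences of 0.11 ± 0.27 after rhabdomyolysis and -0.14 ± 0.27 after IRI.

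Irf1, at chr11:53770014-53778374 (plus strand), is induced by interferon gamma. It ran from 13.4 to 18.4 CPM in controls (median 15.50), and was 19.1, 25.2, 21.0 and 15.4 CPM in IRI, 18.6, 16.0, 19.1 and 14.99 in rhabdomyolysis, and 29.6, 33.1, 40.4 and 30.99 in cisplatin. Cisplatin libraries lay above every other library. Irf1 rose by 0.98 ± 0.14 after cisplatin (limma adjusted p = 1.07e-06) and by 0.40 ± 0.14 after IRI (limma adjusted p = 0.0121), a call that was lost without IRI mouse 2 (limma adjusted p = 0.0638) and with quantile normalization (limma adjusted p = 0.0866). Irf9, the DNA-binding part of the complex that reads the ISRE, ran from 13.3 to 17.3 CPM in controls (median 14.2), and was 14.7, 18.8, 14.4 and 15.2 CPM in IRI, 24.0, 15.96, 19.2 and 16.7 in rhabdomyolysis, and 26.0, 35.5, 40.3 and 26.3 in cisplatin. Cisplatin libraries lay above all others. It rose by 1.06 ± 0.15 after cisplatin and by 0.34 ± 0.15 after rhabdomyolysis (limma adjusted p = 0.0382). The second of these was not called without rhabdomyolysis mouse 1 (limma adjusted p = 0.166), rhabdomyolysis mouse 3 or any 1 of controls 5, 6 and 8, nor with quantile normalization. Irf4, too low to test, was 3.15, 2.12, 2.57 and 2.71 CPM in cisplatin and at most 0.90 in controls.

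Among the 4 tested OAS genes Oasl1 had the largest change on the log2(CPM + 1) scale. Oasl1, at chr5:114923240-114937915 (plus strand), limits translation of Irf7. It ran from 1.44 to 2.67 CPM in controls (median 1.97), and was 3.54, 4.13, 5.74 and 7.21 CPM in IRI, 17.9, 19.7, 22.3 and 34.6 in rhabdomyolysis, and 27.3, 38.7, 32.1 and 29.3 in cisplatin. Each injured library exceeded each control. Oasl1 rose by 0.96 ± 0.20 after IRI (limma adjusted p = 0.000222), 3.00 ± 0.20 after rhabdomyolysis (limma adjusted p = 6.89e-12) and 3.45 ± 0.20 after cisplatin (limma adjusted p = 1.19e-12). Its neighbour Oasl2 was 10.097, 9.06, 6.89 and 9.15 CPM in IRI, 26.9, 15.9, 16.4 and 7.83 in rhabdomyolysis and 23.6, 37.5, 36.0 and 19.2 in cisplatin, with a control range of 6.71 to 11.4. It rose by 1.49 ± 0.25 after cisplatin and by 0.67 ± 0.25 after rhabdomyolysis, the latter not called without rhabdomyolysis mouse 1 (limma adjusted p = 0.107) or control 7 (limma adjusted p = 0.0597). Oas3 fell by 0.92 ± 0.21 after IRI and by 1.19 ± 0.21 after rhabdomyolysis. Oas1a rose after cisplatin (1.21 ± 0.30), with 32.4% of its windows shared with Oas1g.

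Isg15, a ubiquitin-like modifier at chr4:156199424-156200818 (minus strand), and Ifit1, which binds foreign RNA ends, hold the ISRE matches printed above. Isg15 ran from 2.35 to 3.66 CPM in controls (median 3.27), and was 4.72, 3.33, 4.82 and 3.78 CPM in IRI, 9.83, 6.80, 7.13 and 2.61 in rhabdomyolysis, and 14.7, 23.7, 27.7 and 15.2 in cisplatin. Cisplatin libraries lay above all others, and rhabdomyolysis mouse 4 lay within the controls while the other 3 lay above. Isg15 rose by 2.40 ± 0.25 after cisplatin (limma adjusted p = 1.18e-08) and 0.85 ± 0.25 after rhabdomyolysis (limma adjusted p = 0.00268), with 0.20 ± 0.25 after IRI. Ifit1 ran from 3.04 to 6.19 CPM in controls (median 4.47), and was 4.72, 4.53, 4.13 and 4.12 CPM in IRI, 12.4, 9.06, 7.79 and 4.88 in rhabdomyolysis, and 17.5, 30.5, 27.6 and 15.01 in cisplatin. The cisplatin libraries again lay above all others. Ifit1 rose by 2.13 ± 0.24 after cisplatin and 0.81 ± 0.24 after rhabdomyolysis, and its IRI difference was 0.02 ± 0.24.

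Some IFITM proteins, such as Ifitm3, hold viruses back at cell membranes, and Ifitm10 is placed with them by its symbol alone. Ifitm3 ran from 23.6 to 36.1 CPM in controls (median 29.4), and was 57.7, 52.7, 44.9 and 43.0 CPM in IRI, 127, 69.4, 104 and 54.3 in rhabdomyolysis, and 77.7, 118, 104 and 70.1 in cisplatin. All injured libraries lay above the controls. Ifitm3 rose by 0.67 ± 0.21, 1.51 ± 0.21 and 1.62 ± 0.21 (limma adjusted p between 2.67e-07 and 0.00597). Ifitm2 ran from 57.3 to 80.7 CPM in controls (median 71.7), and was 89.3, 97.2, 79.9 and 80.3 CPM in IRI, 154, 105, 126 and 95.7 in rhabdomyolysis, and 111, 130.1, 120.2 and 97.4 in cisplatin. Rhabdomyolysis and cisplatin libraries lay above the controls, and IRI mice 3 and 4 within them. Ifitm2 rose by 0.79 ± 0.13 after rhabdomyolysis and 0.74 ± 0.13 after cisplatin, and 23.5% of its windows are shared with the gene model Gm45717. Ifitm10 ran from 0 to 1.27 CPM in controls (median 0.46), and was 0.92, 3.06, 1.84 and 1.49 CPM in IRI, 4.44, 3.84, 2.28 and 2.95 in rhabdomyolysis, and 4.32, 9.99, 9.16 and 5.23 in cisplatin. IRI mouse 1 alone among the injured lay within the controls. Ifitm10 rose by 0.75 ± 0.26, 1.70 ± 0.26 and 2.56 ± 0.26. Its IRI call was lost without IRI mouse 2 (limma adjusted p = 0.0586) and with quantile normalization (limma adjusted p = 0.112).

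Of the other induced genes, Ifi30 encodes a lysosomal thiol reductase that helps unfold antigens. Ifi30 ran from 46.7 to 73.2 CPM in controls (median 58.2), and was 79.7, 74.3, 76.9 and 69.1 CPM in IRI, 103, 103, 108 and 105 in rhabdomyolysis, and 110.0, 139.6, 125 and 123 in cisplatin. It rose by 0.28 ± 0.12, 0.86 ± 0.12 and 1.10 ± 0.12, so it went up where the class II genes went down. Its IRI call (limma adjusted p = 0.0377) was lost without any 1 of controls 1 and 4 and IRI mice 1, 2 and 3 (limma adjusted p up to 0.198), and with a fit of only the groups compared (limma adjusted p = 0.0916), and edgeR did not call it (adjusted p = 0.0532). Ifi35 ran from 7.38 to 12.4 CPM in controls (median 8.78), and was 12.1, 11.7, 14.5 and 12.8 CPM in IRI, 16.2, 13.3, 13.2 and 12.3 in rhabdomyolysis, and 17.3, 25.4, 26.3 and 17.8 in cisplatin. Only the cisplatin libraries all lay above the controls. Ifi35 rose by 1.27 ± 0.16 there and 0.67 ± 0.16 after rhabdomyolysis. Ifi27l2b was at 0 in 7 of 8 controls and was 1.44, 0.40, 1.49 and 0.57 CPM in IRI, 1.42, 1.97, 1.33 and 1.02 in rhabdomyolysis, and 6.65, 5.55, 5.92 and 6.00 in cisplatin. It was at least 2.38-fold higher in IRI than a floor of 3 reads per control library. Against 2 pooled control reads, the ratio of pooled CPM was 19.6 in rhabdomyolysis (95% interval 5.18 to 165, counting error only) and 81.3 in cisplatin (22.2 to 675). Ifi27l2b was tested only because of its level in cisplatin, as its mean over the other libraries was 0.623 CPM. Isg20, an antiviral exonuclease, rose by 1.92 ± 0.21 after cisplatin and 0.58 ± 0.21 after IRI, Ifi204, a cytosolic DNA sensor, by 1.64 ± 0.22 after cisplatin and 1.07 ± 0.22 after rhabdomyolysis, and Ifi27l2a by 1.24 ± 0.32 after cisplatin.

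The guanylate-binding proteins, GTPases that act on intracellular pathogens, were divided. Gbp6 ran from 11.49 to 29.5 CPM in controls (median 22.98), and was 5.11, 8.92, 3.44 and 4.58 CPM in IRI, 5.20, 5.71, 4.28 and 2.61 in rhabdomyolysis, and 11.4, 11.9, 13.4 and 10.46 in cisplatin. IRI and rhabdomyolysis libraries lay below all controls. Gbp6 fell in all 3 injuries, by differences of -1.66 ± 0.24, -2.34 ± 0.24 and -1.07 ± 0.24 (limma adjusted p between 8.12e-09 and 0.000355). Gbp10 ran from 1.81 to 8.55 CPM in controls (median 5.06), and was 0.92, 0.93, 0.57 and 0.34 CPM in IRI, 0, 0.30, 0.29 and 0.11 in rhabdomyolysis, and 0.35, 0.71, 1.34 and 0.77 in cisplatin. No injured library reached the controls. Gbp10 fell as well, with differences of -1.55 ± 0.27, -2.48 ± 0.27 and -1.89 ± 0.27. These are not independent readings, since 59.1% of the windows of Gbp6 and 66.6% of those of Gbp10 are shared with each other or with Gm43302. Gbp7 ran from 9.03 to 20.3 CPM in controls (median 13.7), and was 16.5, 24.2, 19.6 and 15.8 CPM in IRI, 19.8, 19.4, 20.3 and 9.88 in rhabdomyolysis, and 37.6, 35.3, 36.5 and 22.9 in cisplatin. Cisplatin libraries lay above the controls. Gbp7 rose after cisplatin (1.06 ± 0.25, limma adjusted p = 0.000449).

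Rhabdomyolysis and cisplatin were compared directly, since they share an identifier range. Of the 41 genes, 5 were higher in rhabdomyolysis and 23 in cisplatin, or 68.3% called beside a background of 54.1% (21.4% higher and 32.7% lower). With quantile normalization the share of higher genes among all genes called moved from 39.6% to 51.7%. Class I gave 4 higher and 3 lower, or 1 and 3 of 6 without the genes that passed the filter through 1 injury, class II 0 of 4, and the interferon class 1 higher and 19 lower of 25 (1 and 18 of 24 without Ifi27l2b). All 4 rhabdomyolysis libraries lay below all 4 cisplatin libraries for 19 of 29 interferon genes (background 28.3%), and above them for 5 of 11 class I genes (background 18.5%). Without the genes that were not tested or passed the filter through 1 injury, these were 16 of 24 interferon genes and 1 of 6 class I genes. Among the rhabdomyolysis mice, mouse 4 was the lowest of the 4 for 21 of 29 genes and mouse 1 the highest for 15. In cisplatin, mouse 1 was lowest for 16 and mouse 4 for 10. The summed macrophage and monocyte markers were lowest in rhabdomyolysis mouse 4 (107 CPM), while in cisplatin they were lowest in mouse 4 (189 CPM) and 233 CPM in mouse 1. Their part in this spread was not tested.

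For IRI, the contrast with another injury is the difference of their effects, each against its own controls. Against rhabdomyolysis, 3 of the 41 genes had a higher IRI effect and 16 a lower one (46.3% called, background 52.0%, or 28.6% higher and 23.4% lower). Of these, 6 of 10 tested class I genes (3 of 6 without the genes that passed through 1 injury), 3 of 4 class II genes and 7 of 25 interferon genes were lower, and 2 interferon genes, Gbp10 and Ifngr1, were higher. The interferon count was 4 without rhabdomyolysis mouse 1 and 11 without rhabdomyolysis mouse 4. Neither higher call held without control 5, control 7, rhabdomyolysis mouse 1 or IRI mouse 1. Against cisplatin 0 genes had a higher IRI effect and 24 a lower one (58.5% called, background 30.3%, or 13.5% higher and 16.8% lower): 3 class I, 2 class II, 18 interferon genes (17 of 24 without Ifi27l2b) and Irf2bpl. The share of higher genes among all genes called moved from 44.5% to 55.7% with quantile normalization. In the higher direction 1 gene, H2-Ke6, had an unadjusted p under 0.05 and edgeR called 0. The class I count was 5 without control 3 or control 8. The calls of Irf2bpl (-0.34 ± 0.13, limma adjusted p = 0.0465) and Stat3 (-0.42 ± 0.16, limma adjusted p = 0.0435) were lost when any of many single libraries was left out, with limma adjusted p up to 0.103 and 0.105. For Irf7 the difference between the IRI and cisplatin effects was -2.35 ± 0.39, for Isg15 -2.21 ± 0.35 and for Oasl1 -2.49 ± 0.29 (limma adjusted p between 9.87e-07 and 9.05e-05).

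Interferon genes outside the symbol rule also rose in the largest number after cisplatin. Of 39 listed genes 17 were in the table, and 4 rose and 4 fell after IRI, 9 rose and 4 fell after rhabdomyolysis, and 13 rose and 2 fell after cisplatin. Of all genes, 40.6%, 48.8% and 47.8% rose, so the rhabdomyolysis count is near the background and the IRI count below it. Socs3, a feedback inhibitor of cytokine signalling, rose by 3.20 ± 0.24, 4.10 ± 0.24 and 4.15 ± 0.24. Ddx58, the RNA sensor RIG-I, rose by 0.92 ± 0.11, 0.54 ± 0.11 and 1.34 ± 0.11, and Eif2ak2, the RNA-activated kinase PKR, by 0.86 ± 0.18, 0.82 ± 0.18 and 0.96 ± 0.18. The 4 that fell after IRI and after rhabdomyolysis were Cxcl9, Igtp, Irgm2 and Tgtp1, and Cxcl9 and Tgtp1 fell after cisplatin too. Igtp, Irgm2 and Tgtp1 are immunity-related GTPases and Cxcl9 is a chemokine. Irgm2 was 34.8 ± 5.24 CPM in controls (SD, n = 8), 22.7 ± 1.32 with IRI, 14.6 ± 3.40 with rhabdomyolysis and 31.7 ± 7.20 with cisplatin (SD, 4 mice each). Cxcl9, Igtp and Tgtp1 were named after their values were seen.

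The 2 genes that match by symbol only moved in all 3 injuries. H2-Ke6, which encodes a hydroxysteroid dehydrogenase in the MHC region, ran from 49.8 to 86.0 CPM in controls, and was 42.1, 37.2, 40.1 and 43.8 CPM in IRI, 21.9, 17.6, 19.9 and 21.1 in rhabdomyolysis, and 28.7, 24.8, 29.9 and 38.0 in cisplatin. It fell by 0.71 ± 0.15, 1.72 ± 0.15 and 1.17 ± 0.15, and 54.5% of its windows are shared with Gm20427. Irf2bpl ran from 38.7 to 50.9 CPM in controls and was 61.9, 64.2, 57.6 and 61.5 CPM in IRI, 87.8, 78.6, 89.5 and 78.8 in rhabdomyolysis, and 84.9, 96.0, 101 and 88.6 in cisplatin, rising by 0.61 ± 0.09, 0.81 ± 0.09 and 0.95 ± 0.09.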

How the data were processed

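Kidney cortex RNA of 20 mice (8 control, 4 per injury) was read from 1 table of 6025 genes. The values the authors deposited are CPM, scaled to an effective library size of 6.07 to 10.6 M reads that the sources used here do not define. Per the submitters' processing notes, FastQC, Bowtie2 2.1.0, RSEM 1.2.15 and edgeR were used and the builds GRCm38 and mm10 are named, with no role given. The table holds selected genes only. Every value was a whole multiple of its library's step (100% within 0.001 reads, largest distance 5.07e-05), so reads were recovered. The depth was 3.48 to 5.40 M reads in the table.

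Groups come from the sample labels. A model of 5 cells (controls of each identifier range and the 3 injuries) was fitted with limma 3.58.1 (R 4.3.3) on log2(CPM + 1), with a mean-variance trend, over genes averaging 1 CPM or more. Values in the text for controls cover all 8, and tests use the 4 matched ones. The rhabdomyolysis and cisplatin contrasts share controls, and their calls are set side by side only. edgeR 4.0.16 on recovered reads called 4545, 5397 and 5186 genes after IRI, rhabdomyolysis and cisplatin, against 4578, 5404 and 5208 with limma. No library pair agreed within sampling noise. Mice are separate biological replicates per the series' design.

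The 46 genes, the lists and the tests were chosen with earlier results of these data known. Values in each library are given for the 2 genes per role with the highest mean, the 2 with the largest called change, the largest differences between injuries, and Cd74, Tap1, Irf1 and Irf7. Pathway and marker genes are named by highest mean. Gene spans are from GENCODE M21 (GRCm38), 45 of 46 symbols matching. Motifs were searched on both strands of RefSeq promoter windows (GRCm38.p6). Alternatives were pseudocount, minimum mean, scaling, trend, controls, edgeR, a replicate block and leaving out each library.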

Additional observations from a re-analysis of the deposited data

Results flagged for a closer look

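In 6 of 120 group-by-gene sets of 4 to 8 libraries, 1 library stood far from the others by Dixon's ratio of its gap to the whole range. Chance alone flags about 5% of such sets, or 6. Gbp7 was low in rhabdomyolysis mouse 4 (9.88 CPM, ratio 0.911) and in cisplatin mouse 4 (22.9 CPM, ratio 0.847). Irf7 was high in IRI mouse 1 (13.1 CPM, ratio 0.881). Among controls, H2-Q1 was high in mouse 4 (1.58 CPM, ratio 0.597), Ifitm10 in mouse 2 (1.27 CPM, ratio 0.564), and Ifi27l2b was above 0 in mouse 6 alone (0.32 CPM, ratio 1).

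The largest tested differences between injuries were these, on the log2(CPM + 1) scale. Rhabdomyolysis minus cisplatin was 2.25 for H2-Q1, -2.10 for Irf7 and -1.67 for Tap1. H2-Q1 was tested only because of its level in rhabdomyolysis, which lifted its mean over the filter. The IRI effect minus the rhabdomyolysis effect was -2.93 for H2-Q1, -2.04 for Oasl1 and -1.76 for H2-T10. The IRI effect minus the cisplatin effect was -2.49 for Oasl1, -2.35 for Irf7 and -2.21 for Isg15.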

How the results depend on the processing

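Among the named genes, the call held in every alternative for 15 of 18 after IRI, 23 of 26 after rhabdomyolysis, 27 of 28 after cisplatin, 18 of 20 between rhabdomyolysis and cisplatin, 10 of 16 and 16 of 20 where the IRI effect was set against that of rhabdomyolysis and of cisplatin. At a minimum mean of 5 CPM, which tests fewer genes, higher class I calls numbered 2 after cisplatin, 1 after rhabdomyolysis and 0 for rhabdomyolysis over cisplatin (1 over all 46 genes), lower class I calls for IRI against rhabdomyolysis 2, and lower interferon calls after cisplatin 1. Leaving out the 5 genes that passed the filter only through 1 injury, a choice made after seeing the data, gave 2 class I genes higher after rhabdomyolysis and 2 after cisplatin, 1 class I gene and 2 genes in all for rhabdomyolysis over cisplatin, and 3 class I genes lower for IRI against rhabdomyolysis. With quantile normalization class I gave 3 higher after cisplatin and 1 higher and 5 lower after IRI, and IRI against cisplatin gave 1 higher gene. With 75th percentile scaling class I gave 1 higher after IRI, and the median of all genes moved from 0.08 to 0.18 after IRI and from 0.31 to 0.44 after rhabdomyolysis. Without the trend 5 class I genes were lower for IRI against cisplatin. With all 8 controls 6 class I and 4 class II genes were lower and 1 gene was higher there. Higher interferon genes for IRI against rhabdomyolysis numbered 1 under the 5 CPM minimum, both scalings and all 8 controls. The cause was not tested in the other settings.

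Leaving out 1 library gave 3 to 4 class I genes higher after cisplatin, 0 to 1 higher after IRI (1 without IRI 4), 7 to 11 interferon genes higher after IRI, 0 to 1 genes higher and 3 to 5 class I genes lower for IRI against cisplatin, and, for IRI against rhabdomyolysis, 1 to 4 genes higher, of which 0 to 3 interferon genes, and 4 to 11 interferon genes lower.

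Replicate numbers did not pair the mice: deviations of same-numbered mice correlated between -0.112 and 0.176 for IRI and controls and between -0.207 and 0.325 for rhabdomyolysis and cisplatin. With the replicate block 8 interferon genes rose after IRI, and Irf1 and Ifi30 were no longer called (limma adjusted p = 0.0553 and 0.0754). The interferon counts between rhabdomyolysis and cisplatin were again 19 lower and 1 higher, with Gbp10 newly called (limma adjusted p = 0.0205).

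Signs that turned were those of values that had not been called, except H2-Q1 after cisplatin (-0.057 with quantile normalization). The other quantile values were -0.27 for H2-T10 and 0.017 for H2-T23 after cisplatin. After IRI they were -0.17 for Ifit1, -0.023 for Irf9, -0.022 for Isg15, -0.042 for Oasl2 and -0.025 for Tap1. After rhabdomyolysis Irf1 was at -0.000984, and against cisplatin H2-Ab1 was at 0.14, Ifitm3 at 0.041 and Irf2bpl at 0.0094. With edgeR they were -0.028 for Ifit1 after IRI, 2.02 for Ifi27l2b in IRI against rhabdomyolysis and 0.067 for H2-Ab1 in rhabdomyolysis against cisplatin (0.081 with 75th percentile scaling). With all 8 controls Gbp10 was at -0.072 for IRI against cisplatin. Over single libraries left out, H2-T10 ran from -0.17 to 0.015 and Ifit1 from -0.10 to 0.17 after IRI, Irf7 from -0.14 to 0.48 after rhabdomyolysis, and Tap1 from -0.25 to 0.020 for IRI against rhabdomyolysis. For rhabdomyolysis against cisplatin Cd74 ran from -0.022 to 0.26, H2-Ab1 from -0.19 to 0.16, Ifitm2 from -0.076 to 0.15 and Ifitm3 from -0.30 to 0.099.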
